A study of Rattus norvegicus with 9 samples.

Results

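The genes described here are the BET proteins Brd2 and Brd3, the P-TEFb inhibitor Hexim1, the P-TEFb kinase Cdk9, its cyclins Ccnt1 and Ccnt2, and the 7SK-binding protein Larp7, in RNA-seq of the rat basophilic leukemia line RBL-2H3. They were taken by gene symbol, and these 7 genes are among 18006 genes with values. Of the 9 samples, 3 were titled Ctrl, 3 IgE/DNP (DNP) and 3 PF1, called PF here. By the labels, DNP and PF cells were exposed for 12 h to anti-DNP IgE (50 ng/mL) and challenged with the antigen DNP-HSA (100 ng/mL), and PF cells received PF for 1 h before the challenge. The labels do not say what PF is, and neither its dose nor a vehicle for the other groups is given. Stimulation of the DNP samples lasted 4 h in both label fields that give it. One of these fields puts stimulation of PF replicates 1, 2 and 3 at 4, 5 and 6 h, and the other, the protocol field, at 4 h. Ctrl cells are called untreated in 1 field, whereas the protocol field gives the same sensitization and challenge for all 9 samples. Whether Ctrl cells received IgE or the antigen is therefore not settled by the labels. The paper describes its control group as not treated with DNP-HSA, and Ctrl cells are taken as unchallenged here. All samples come from 1 cell line, which the labels list under peripheral blood, and nothing states that replicates were separate cultures. The p-values therefore set differences between groups against the spread among samples of a group, which may be technical.

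BET proteins read acetylated lysines on histones through their bromodomains and bring further factors to active promoters and enhancers. P-TEFb, made of Cdk9 and a T-type cyclin, phosphorylates RNA polymerase II, NELF and the Spt5 subunit of DSIF, which releases promoter-proximally paused polymerase into elongation. Much of the P-TEFb in a cell is held inactive in the 7SK ribonucleoprotein, where Hexim1 or Hexim2 blocks the kinase, Larp7 binds and stabilizes the 7SK RNA and Mepce caps it. In mast cells, antigen that crosslinks receptor-bound IgE sets off degranulation and a fast transcriptional response, and P-TEFb acts at the elongation step shared by most genes that RNA polymerase II transcribes.

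The upstream sequences of Brd2, Hexim1 and Mepce are shown because these genes had the largest differences, in size, among the members and their closest relatives in PF vs DNP or DNP vs Ctrl. Each is the 250 bases before the gene's start in the RefSeq annotation of the GRCr8 assembly, on the plus strand, written 5′ to 3′. Brd2 lies at chr20:4729829-4730078, Hexim1 at chr10:88562639-88562888 and Mepce at chr12:24548346-24548595. Capitals mark every match, on either strand, to the motifs searched.
Brd2: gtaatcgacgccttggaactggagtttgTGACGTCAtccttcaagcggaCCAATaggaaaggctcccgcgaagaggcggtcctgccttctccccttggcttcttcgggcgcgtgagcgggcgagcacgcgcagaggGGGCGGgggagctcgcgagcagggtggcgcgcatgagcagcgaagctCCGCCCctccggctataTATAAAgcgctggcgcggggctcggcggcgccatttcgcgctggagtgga
Hexim1: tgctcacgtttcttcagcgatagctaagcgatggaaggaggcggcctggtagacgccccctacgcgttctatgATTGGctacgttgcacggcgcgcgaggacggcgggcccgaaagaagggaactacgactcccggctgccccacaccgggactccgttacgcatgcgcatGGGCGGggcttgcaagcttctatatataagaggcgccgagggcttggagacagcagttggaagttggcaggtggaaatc
Mepce: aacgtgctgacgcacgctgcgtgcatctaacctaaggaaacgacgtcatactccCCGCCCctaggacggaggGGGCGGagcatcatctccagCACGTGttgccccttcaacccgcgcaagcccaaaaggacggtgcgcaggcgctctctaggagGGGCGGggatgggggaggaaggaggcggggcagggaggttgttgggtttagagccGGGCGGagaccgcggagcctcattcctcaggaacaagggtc
The motifs, searched on both strands, were the TATA box TATAAA, the CCAAT box CCAAT, the GC box GGGCGG, the cAMP response element TGACGTCA, the AP-1 site TGANTCA, the E box CACGTG, the EGR site GCGTGGGCG and the ETS site CCGGAA. In the same window of 33469 RefSeq promoters they occurred in 12.9%, 34.0%, 30.5%, 1.59%, 6.34%, 5.59%, 0.478% and 12.6%, respectively. No match overlapped another in the 3 windows shown. The Brd2 window held TATAAA 50 bases before the start, CCAAT at 201, TGACGTCA at 222 and GGGCGG at 114 and, on the other strand, at 67. The Hexim1 window held CCAAT at 177 on the other strand and GGGCGG at 79. The Mepce window held GGGCGG 4 times and CACGTG once, at 158. TGACGTCA was also present 55 bases before the start of Larp7, and no window of a member that was searched held TGANTCA or GCGTGGGCG. The GC content was 66.0% for Brd2, 60.4% for Hexim1 and 64.4% for Mepce, beside a median of 51.2% over all promoters. Promoters were found for 6 of the 7 members, the exception being Cdk9. These matches describe letters in a window of an assembly other than the one used for the expression values.

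The deposited values were read as FPKM, a level scaled by gene length and sequencing depth. They summed to between 573023 and 591539 in Ctrl and DNP samples and to between 610206 and 630069 in PF samples, so fold changes are given as deposited and, where it matters, after scaling every sample to the same sum. All 10 mast cell or basophil markers with values, out of 12 listed, averaged at least 1 FPKM, and their summed level was 5502 to 5820 FPKM over the 9 samples. Epithelial markers stayed at or below 0.0800 FPKM in sum, B cell markers at or below 1.15, macrophage or monocyte markers at or below 2.07, erythroid markers at or below 1.64 and T cell markers at or below 10.2. The fibroblast or endothelial list summed to 58.7 to 61.8 FPKM in Ctrl, 55.1 to 60.7 in DNP and 43.8 to 48.4 in PF, almost all of it Pecam1, and its part in the results was not tested.

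Larp7 was the most abundant of the 7 transcripts in Ctrl cells by FPKM, at 61.7 ± 2.87 (SD, n = 3 in each group here and below). Cdk9 at 36.8 ± 0.803 and Brd2 at 35.0 ± 2.92 followed, with overlapping samples, and then Hexim1 at 21.1 ± 1.02. Ccnt2 at 11.8 ± 0.832 and Ccnt1 at 11.7 ± 1.07 overlapped, and Brd3 was lowest at 2.21 ± 0.215. In DNP cells the order was the same except that Ccnt1 and Ccnt2, still overlapping, changed places, and the Cdk9 and Brd2 samples were separate. In PF cells Brd2 moved above Cdk9 and overlapped Larp7, while Ccnt1, Hexim1 and Ccnt2 formed a run in which each overlapped the next. Among genes averaging at least 1 FPKM, Larp7 stood at the 84.4 percentile and Brd3 at the 12.2 percentile. In bulk samples, fewer cells expressing a gene and less RNA per cell cannot be told apart.

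**Figure D1:**
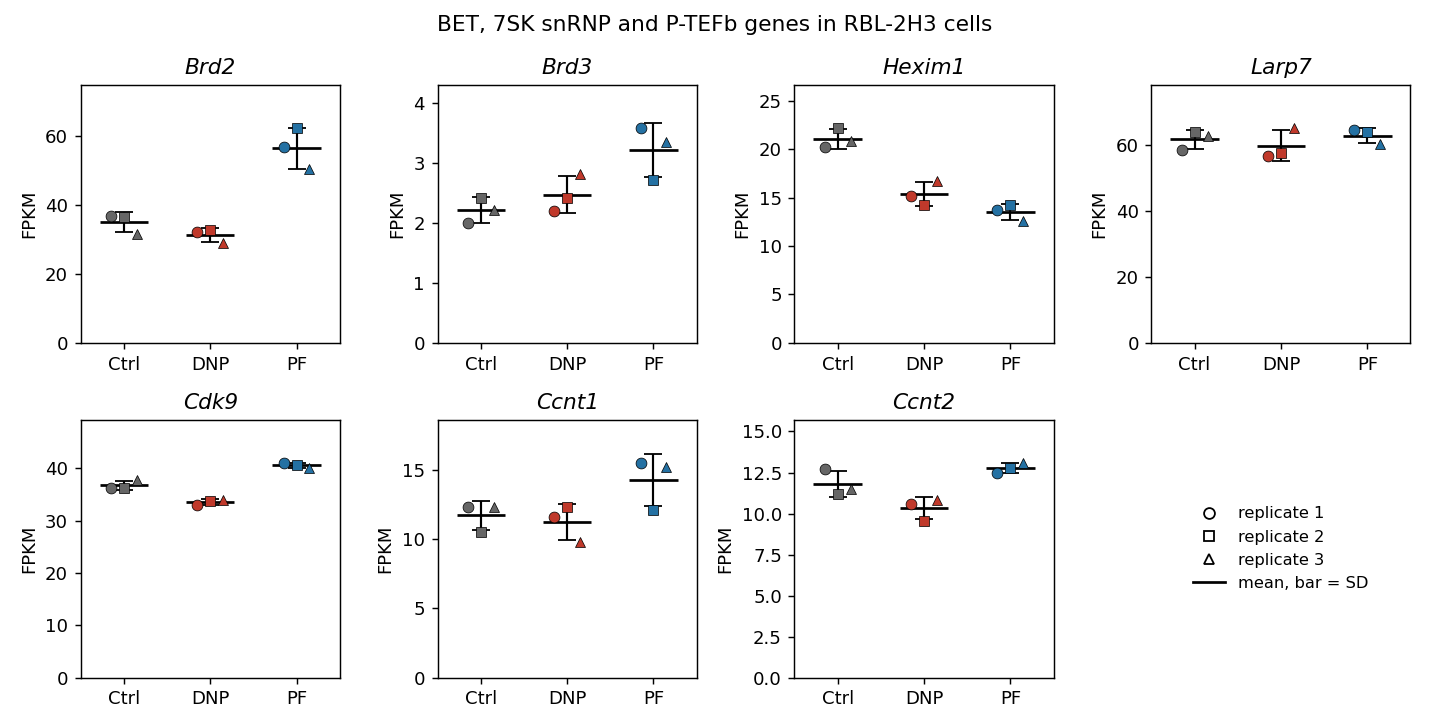
FPKM of the 7 genes in each of the 9 samples, with 1 panel per gene, groups on the x axis, points for samples and bars for the mean and SD (n = 3). The 3 PF samples of Brd2 lie between 50.4 and 62.3 FPKM, above all others, and the 3 Ctrl samples of Hexim1 lie between 20.2 and 22.2 FPKM, above all others.

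Brd2 transcripts were higher in PF cells than in both other groups. Brd2 measured 36.7, 36.6 and 31.6 FPKM in Ctrl replicates 1 to 3, 32.0, 32.8 and 29.0 in DNP, and 56.7, 62.3 and 50.4 in PF. The PF samples were all above the other 6, while Ctrl and DNP overlapped. Brd2 rose 1.81-fold in PF vs DNP, with a log2 fold change of 0.83 ± 0.0757 (SE) and an adjusted p of 3.72e-05 by limma. In that comparison its log2 fold change was at the 99.4 percentile of all genes tested. Brd2 rose 1.61-fold in PF vs Ctrl, with a log2 fold change of 0.67 and adjusted p = 2.12e-04 by limma. Across the alternative settings tried, the log2 fold change stayed between 0.73 and 0.91 in PF vs DNP and between 0.59 and 0.75 in PF vs Ctrl, past the threshold each time. The log2 fold change in DNP vs Ctrl was -0.16 with adjusted p = 0.122 by limma, and leaving out Ctrl replicate 3 gave -0.23 with adjusted p = 0.0237.

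Brd3, a BET protein known for binding acetylated GATA1, was expressed at a low level. Its values were 1.99, 2.42 and 2.21 FPKM in Ctrl, 2.19, 2.41 and 2.81 in DNP, and 3.58, 2.71 and 3.35 in PF. All PF samples exceeded all Ctrl samples, whereas PF replicate 2 lay below DNP replicate 3. Brd3 rose 1.46-fold in PF vs Ctrl, with adjusted p = 0.0104 by limma on a log2(FPKM + 1) difference of 0.39, a scale that understates the fold of such low values. Between PF and DNP the difference was 0.28 with adjusted p = 0.0569. It passed the threshold when PF replicate 2 was left out (adjusted p = 0.0226) when DNP replicate 3 was (0.0408) and after scaling by median ratios (0.0311). Between DNP and Ctrl the difference was 0.11 with adjusted p = 0.420 by limma. In the GRCr8 annotation a microRNA and a small nucleolar RNA gene overlap Brd3. Brdt, the testis member of the family, was listed at 0 in 8 samples and at 0.0800 FPKM in PF replicate 2.

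Hexim1 was lower in both challenged groups than in Ctrl cells. It measured 20.2, 22.2 and 20.8 FPKM in Ctrl, 15.2, 14.2 and 16.7 in DNP, and 13.7, 14.2 and 12.6 in PF. The Ctrl samples lay above the other 6, and the DNP and PF ranges overlapped narrowly near 14.2 FPKM. Hexim1 fell in DNP vs Ctrl to 0.730 of the Ctrl mean, with a log2 fold change of -0.43 ± 0.0648 (SE) and adjusted p = 0.00219 by limma. It fell in PF vs Ctrl to 0.641 of the Ctrl mean, with a log2 fold change of -0.61 ± 0.0616 and adjusted p = 6.71e-05 by limma. In the alternative settings these log2 fold changes ranged from -0.49 to -0.38 and from -0.70 to -0.54. Its log2 fold change in PF vs DNP was -0.17 with adjusted p = 0.0673 by limma. After scaling to equal sums it was -0.27 with adjusted p = 0.00844, and without DNP replicate 2 the adjusted p was 0.0374.

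Larp7 passed the threshold in no comparison. Its values were 58.4, 63.9 and 62.7 FPKM in Ctrl, 56.5, 57.4 and 65.1 in DNP, and 64.4, 63.9 and 60.1 in PF, with overlap between every pair of groups. The log2 fold changes were -0.05 in DNP vs Ctrl, 0.07 in PF vs DNP and 0.03 in PF vs Ctrl, with adjusted p = 0.570, 0.305 and 0.670 by limma. Scaling to equal sums turned the PF vs DNP value to -0.02 and the PF vs Ctrl value to -0.05. Leaving out DNP replicate 3 gave 0.14 in PF vs DNP with adjusted p = 0.0397.

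Mepce, the 7SK capping enzyme, and Hexim2, the paralog of Hexim1, complete this complex. Mepce measured 14.8, 13.4 and 11.4 FPKM in Ctrl, 10.7, 11.9 and 13.5 in DNP, and 5.13, 3.99 and 3.77 in PF. All PF samples were below the other 6, and Ctrl and DNP overlapped. Mepce fell in PF vs DNP to 0.357 of the DNP mean, with a log2 fold change of -1.30 ± 0.111 (SE) and adjusted p = 2.48e-05 by limma, at the 0.852 percentile of all genes tested. The log2 fold change in PF vs Ctrl was -1.43 with adjusted p = 2.12e-05, and in DNP vs Ctrl -0.13 with adjusted p = 0.395 by limma. In the GRCr8 annotation Mepce overlaps the coding gene Ppp1r35, and whether reads were counted by strand is not stated, so reads of the pair may not be separable. Ppp1r35, looked up for that overlap, measured 9.67, 8.79 and 9.35 FPKM in Ctrl, 7.78, 3.53 and 1.37 in DNP, and 7.73, 7.93 and 2.45 in PF. Its log2 fold change was 0.50 in PF vs DNP with adjusted p = 0.416 by limma, and ranged from 0.03 without DNP replicate 3 to 0.98 with 1 sample left out. In PF vs Ctrl it was -0.67, which did not pass the threshold, and all PF samples were below all Ctrl samples. In DNP vs Ctrl it was -1.17 with adjusted p = 0.0499, and that p ranged from 0.00368 to 0.142 over the alternatives.

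Hexim2 measured 3.95, 4.60 and 5.15 FPKM in Ctrl, 3.49, 3.36 and 3.83 in DNP, and 4.43, 4.34 and 5.24 in PF. The DNP samples lay below the other 6. Hexim2 rose 1.31-fold in PF vs DNP, with a log2 fold change of 0.31 and adjusted p = 0.0149 by limma. The adjusted p was 0.0507 without DNP replicate 2 and 0.0578 after scaling to equal sums. Hexim2 had a log2 fold change of -0.28 in DNP vs Ctrl with adjusted p = 0.0536 by limma, and 0.0248 without Ctrl replicate 1. Hexim1 and Hexim2 thus had log2 fold changes of opposite sign in PF vs DNP, -0.17 and 0.31, a difference that was not tested.

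**Figure D2:**
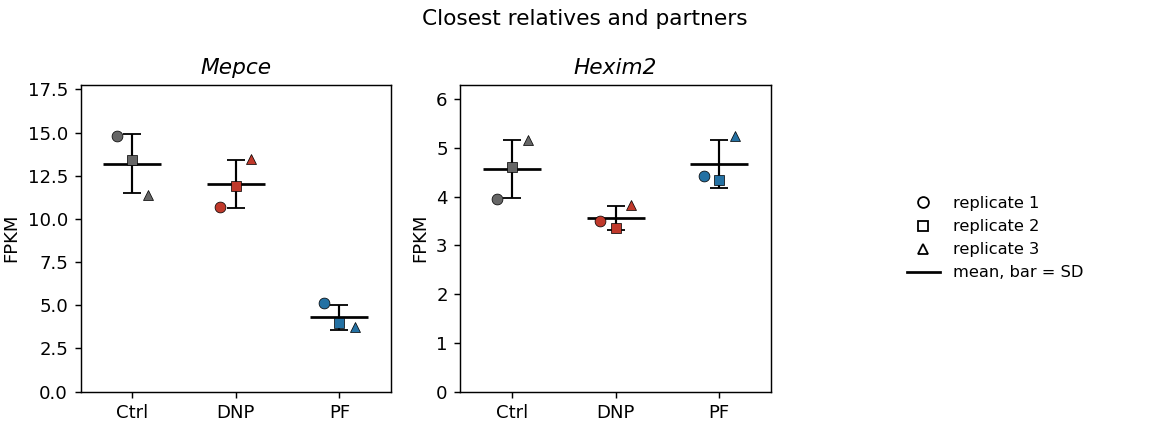
FPKM of Mepce and Hexim2 in each sample, with groups on the x axis, points for samples and bars for the mean and SD (n = 3). The 3 PF samples of Mepce lie between 3.77 and 5.13 FPKM, below the 6 others, which lie between 10.7 and 14.8.

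Cdk9, the catalytic subunit, had the smallest SD relative to its mean of the 7 genes in each group. It measured 36.3, 36.3 and 37.7 FPKM in Ctrl, 33.0, 33.7 and 34.0 in DNP, and 41.1, 40.6 and 40.0 in PF. The groups did not overlap, with DNP lowest and PF highest. Cdk9 rose 1.21-fold in PF vs DNP, with a log2 fold change of 0.27 ± 0.0354 (SE) and adjusted p = 3.39e-04 by limma, and the value stayed past the threshold between 0.17 and 0.33 in all alternatives. Cdk9 fell in DNP vs Ctrl to 0.913 of the Ctrl mean, a log2 fold change of -0.13 with adjusted p = 0.0322. That call was lost without any 1 DNP sample (adjusted p = 0.109, 0.0810 and 0.0666 without replicates 1, 2 and 3), without Ctrl replicate 2 (0.0534) or 3 (0.0898), and after scaling to equal sums (0.0696). Cdk9 rose 1.10-fold in PF vs Ctrl, a log2 fold change of 0.14 with adjusted p = 0.0146 by limma. This became 0.06 with adjusted p = 0.253 after scaling to equal sums, and the adjusted p was 0.0544 without PF replicate 1.

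Ccnt1 and Ccnt2, the T-type cyclins that pair with Cdk9, were at like levels. Ccnt1 measured 12.3, 10.5 and 12.3 FPKM in Ctrl, 11.6, 12.3 and 9.81 in DNP, and 15.5, 12.1 and 15.2 in PF. PF replicate 2 lay within the range of the other groups. Ccnt1 rose 1.27-fold in PF vs DNP with a log2 fold change of 0.32 and adjusted p = 0.0325 by limma. This call was lost without PF replicate 1 (adjusted p = 0.109), PF replicate 3 (0.0975), DNP replicate 1 (0.0541) or DNP replicate 3 (0.107), and after scaling to equal sums (0.126). The PF vs Ctrl log2 fold change was 0.26 with adjusted p = 0.0541 by limma, and 0.00738 without PF replicate 2. It was 0.0205 after scaling by median ratios. The DNP vs Ctrl log2 fold change of Ccnt1 was -0.06 with adjusted p = 0.660 by limma.

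Ccnt2 measured 12.7, 11.2 and 11.5 FPKM in Ctrl, 10.6, 9.57 and 10.8 in DNP, and 12.5, 12.8 and 13.1 in PF. The DNP samples lay below the other 6, while Ctrl and PF overlapped. Ccnt2 rose 1.24-fold in PF vs DNP, with a log2 fold change of 0.29 ± 0.0587 (SE) and adjusted p = 0.00362 by limma. With PF replicate 1 as the sole PF sample the adjusted p was 0.0688. The log2 fold changes were -0.18 in DNP vs Ctrl and 0.11 in PF vs Ctrl, with adjusted p = 0.0882 and 0.157 by limma. The PF vs Ctrl value was 0.17 with adjusted p = 0.0338 after scaling by median ratios, and 0.04 with adjusted p = 0.685 after scaling to equal sums.

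All 7 genes passed the filter on low values in each comparison. Of the 7, 2 (28.6%) were called in DNP vs Ctrl, Hexim1 and Cdk9, both lower, where 29.2% of all 10392 genes tested were called (14.7% higher and 14.4% lower). The paper, with DESeq2 and a Q cutoff of 0.05, reported far fewer differentially expressed genes after DNP-HSA treatment. Why the 2 counts differ was not tested. The median log2 fold change of the 7 was -0.13 and that of all genes -0.01. For PF vs DNP, 4 of 7 (57.1%) were called, all higher, namely Brd2, Cdk9, Ccnt1 and Ccnt2, where 48.8% of 10329 genes were called, 18.1% higher and 30.7% lower. The medians were 0.28 for the 7 and -0.04 for all genes. For PF vs Ctrl, 4 of 7 were called, with Brd2, Brd3 and Cdk9 higher and Hexim1 lower, where 57.7% of 10361 genes were called, 23.1% higher and 34.6% lower. The medians were 0.14 and -0.05. The share called in either direction was thus near the background in all 3 comparisons. The split by direction rests on at most 4 called genes in each comparison and was not tested. In PF vs DNP and PF vs Ctrl it moved with scaling, as given below.

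The samples of the groups did not overlap for 3 of the 7 genes in DNP vs Ctrl (45.8% of all genes, 22.4% higher and 23.4% lower), for 3 in PF vs DNP (57.6%, with 22.3% higher and 35.4% lower) and for 4 in PF vs Ctrl (64.8%, with 26.6% higher and 38.2% lower). In no comparison was the share among the 7 above that of all genes. The non-overlapping genes in DNP vs Ctrl were Hexim1, Cdk9 and Ccnt2, all lower. Those in PF vs DNP were Brd2, Cdk9 and Ccnt2, all higher. Those in PF vs Ctrl were Brd2, Brd3 and Cdk9, higher, and Hexim1, lower. Each such gene had p = 0.1 in a two-sided exact permutation test, the smallest that 3 samples against 3 allow. The 3 comparisons share samples, so their values stand side by side and are not independent. The split of calls over all genes depended on scaling. Of the genes called in PF vs DNP, 37.1% were higher as deposited, 16.6% after scaling to equal sums and 50.8% after scaling by median ratios. The corresponding shares in PF vs Ctrl were 40.0%, 26.5% and 51.3%. Among the 7 genes, scaling to equal sums left 3 called higher (Brd2, Cdk9 and Ccnt2) and 1 lower (Hexim1) in PF vs DNP, and 2 higher (Brd2 and Brd3) and 1 lower (Hexim1) in PF vs Ctrl. Scaling by median ratios gave 5 higher and 0 lower in PF vs DNP, and 5 higher and 1 lower in PF vs Ctrl.

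**Figure D3:**
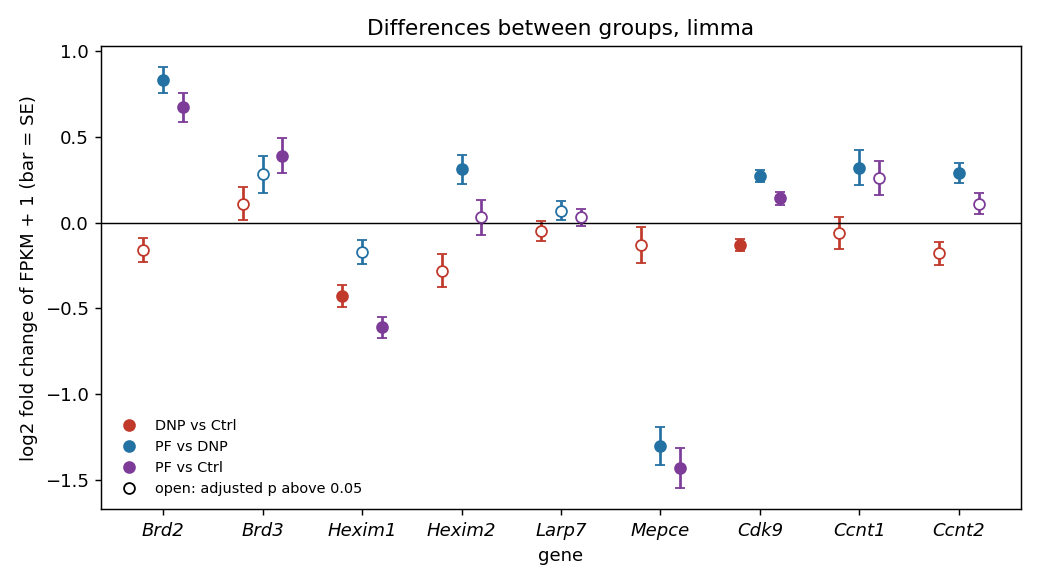
Log2 fold changes of the 7 genes and of Hexim2 and Mepce (x axis) in the 3 comparisons, on the log2(FPKM + 1) scale (y axis) with standard errors from limma, filled where the adjusted p was at most 0.05. Brd2 in PF vs DNP lies farthest above 0, at 0.83, and Mepce in PF vs Ctrl farthest below, at -1.43.

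Ratios between transcripts of 1 sample do not depend on the scaling of that sample. Hexim1 relative to Cdk9, the inhibitor against the kinase, was 0.573 ± 0.0323 in Ctrl, 0.458 ± 0.0346 in DNP and 0.333 ± 0.0190 in PF. No groups overlapped, and the log2 differences were -0.33 in DNP vs Ctrl, -0.46 in PF vs DNP and -0.78 in PF vs Ctrl, each with p = 0.1, the smallest an exact permutation test allows here. Hexim1 relative to Larp7 was 0.341 ± 0.00785, 0.258 ± 0.0109 and 0.215 ± 0.00728 in Ctrl, DNP and PF, again without overlap. The summed cyclins relative to Cdk9 were 0.640 ± 0.0479, 0.642 ± 0.0346 and 0.666 ± 0.0469, and these overlapped in every pair of groups, as did Ccnt1 relative to Ccnt2 (0.994 ± 0.0693, 1.09 ± 0.187 and 1.11 ± 0.152). Brd2 relative to Brd3 was 16.0 ± 2.20 in Ctrl, 12.8 ± 2.24 in DNP and 17.9 ± 4.38 in PF, and only PF and DNP did not overlap.

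**Figure D4:**
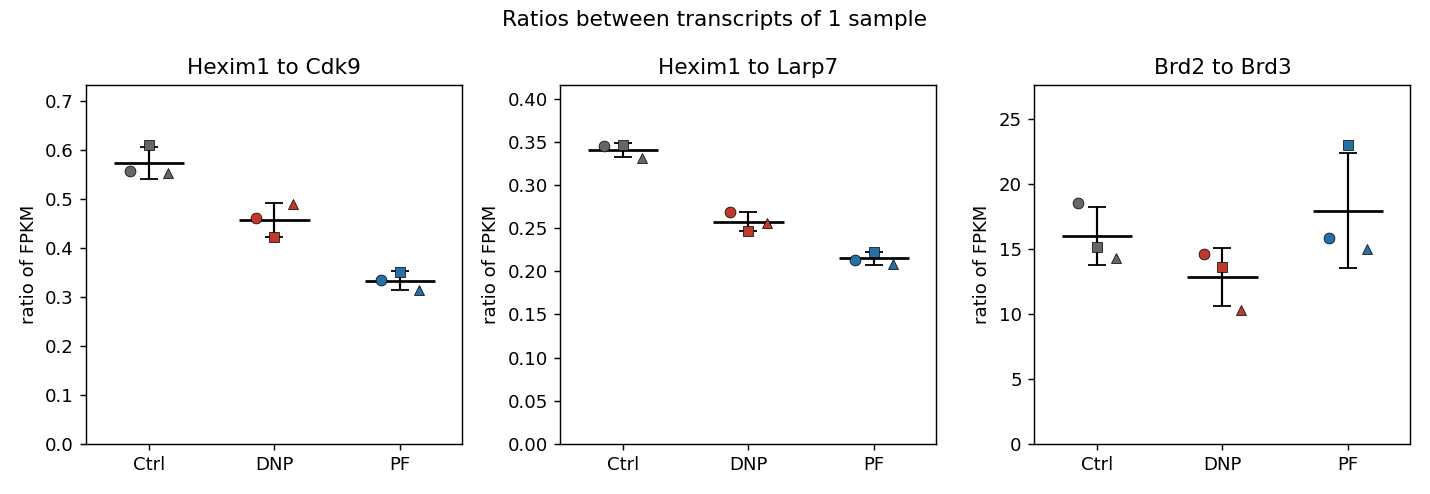
The FPKM ratios of Hexim1 to Cdk9, Hexim1 to Larp7 and Brd2 to Brd3 (y axes) in each sample by group, with circles, squares and triangles for replicates 1 to 3, and bars for the mean and SD (n = 3). The ratio of Hexim1 to Cdk9 does not overlap between groups, with means of 0.573 in Ctrl, 0.458 in DNP and 0.333 in PF.

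The other genes of the pathway were taken as 8 lists, of which 95 genes were tested. Together 28.4%, 60.0% and 69.5% of them were called in DNP vs Ctrl, PF vs DNP and PF vs Ctrl, beside 29.2%, 48.8% and 57.7% of all genes. Of the 8 tested genes of the super elongation complex, which carries P-TEFb to genes, 3 were called in DNP vs Ctrl and all rose, with Eaf1 at a log2 fold change of 0.51 and Ell at 0.16. The 3 called in PF vs DNP all fell, among them Ell (-0.54) and Ell2 (-0.31), scaling to equal sums made this 6, and by median ratios 1 rose and 3 fell. Against Ctrl, 2 rose and 3 fell in PF cells, with Eaf1 at 0.46, Ell3 at 0.22, Ell at -0.38 and Aff1 at -0.23. The list's medians were 0.13, -0.13 and -0.04.

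Factors of pausing and elongation, which P-TEFb phosphorylates or which travel with the polymerase, were mixed. Of 11 tested, 2 rose and 1 fell in DNP vs Ctrl, with Ssrp1, a subunit of the histone chaperone FACT, at 0.51, Supt6h at 0.12 and Supt4h1 at -0.26. Between PF and DNP 3 rose and 3 fell, with 2 against 4 after scaling to equal sums and 5 against 2 by median ratios. Supt5h, which encodes the large DSIF subunit, had a log2 fold change of 0.27 and its partner Supt4h1 of -0.29, and the NELF subunits Nelfb and Nelfa had 0.25 and -0.32. Between PF and Ctrl 3 rose and 2 fell, with Ssrp1 at 0.65, Supt5h at 0.25, Supt4h1 at -0.55 and Nelfa at -0.41, and by median ratios 5 rose and 2 fell. Of 6 PAF1 complex genes, 0 were called in DNP vs Ctrl by limma (0 at an unadjusted p under 0.05), 1 rose in PF vs DNP (Paf1, 0.14) and 2 rose in PF vs Ctrl (Leo1, 0.32, and Paf1, 0.25). After scaling to equal sums 0 were called in PF vs DNP, and 1 rose and 1 fell in PF vs Ctrl.

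Of 12 genes of other transcriptional kinase complexes, 3 were called in DNP vs Ctrl and all rose, including Mnat1 at 0.51 and Ccnc at 0.19. From DNP to PF 1 rose and 5 fell, with 1 against 7 after scaling to equal sums and 3 against 3 by median ratios. The one that rose as deposited was Ccnl1, a cyclin L tied to splicing, from a mean of 101 to 176 FPKM (log2 fold change 0.79). Cdk7, the kinase of TFIIH, fell by 0.58 and Cdk19, a kinase of the Mediator module, by 0.46 on the log2 scale. From Ctrl to PF 4 rose and 4 fell, with Ccnl1 at 0.83, Mnat1 at 0.43, Cdk7 at -0.68 and Cdk19 at -0.55, and after scaling to equal sums 2 rose and 5 fell.

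Of 8 further 7SK proteins, Hexim2 and Mepce among them, 5 were called in DNP vs Ctrl and all rose, including the RNA-binding protein Syncrip at 0.23 and the splicing factor Srsf2 at 0.18. Between PF and DNP 4 rose, with Syncrip and Hexim2 each at 0.31, and Mepce fell. This split was 1 against 1 after scaling to equal sums and 6 against 1 by median ratios. Between PF and Ctrl 6 rose, with Syncrip at 0.54 and Hnrnpr at 0.30, and Mepce fell. The medians of the list were 0.15, 0.12 and 0.25. Of 5 BET partners, 2 were called in DNP vs Ctrl, 3 in PF vs DNP and 3 in PF vs Ctrl, and all of these fell. The number in PF vs DNP was 4 after scaling to equal sums and 2 by median ratios. Bicra, a BAF complex subunit, had log2 fold changes of -0.36, -0.59 and -0.96, and Nsd3, a histone methyltransferase, of -0.40 in PF vs DNP and -0.39 in PF vs Ctrl. Jmjd6, a Jumonji domain protein, fell by 0.23 in DNP vs Ctrl.

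Of 32 other bromodomain genes, 4 rose and 4 fell in DNP vs Ctrl. The acetyltransferase gene Kat2a had a log2 fold change of 0.54 and Zmynd11 of 0.30, and Trim24 and Brd8 had -0.40 and -0.28. Between PF and DNP 6 rose and 17 fell, and in PF vs Ctrl 6 rose and 18 fell. The PF vs DNP split was 1 against 20 after scaling to equal sums and 7 against 13 by median ratios, and the PF vs Ctrl split was 4 against 20 and 8 against 14. Kat2a (0.30) and Phip (0.31) were the highest in PF vs DNP, and the histone methyltransferase gene Ash1l (-0.57) and the acetyltransferase gene Crebbp (-0.55) the lowest. For PF vs Ctrl, Kat2a had 0.84, Atad2 0.38, and Brd8 and Ash1l -0.78 each. The medians were -0.08, -0.13 and -0.21, beside -0.01, -0.04 and -0.05 for all genes.

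Of 13 RNA polymerase II subunits, 2 rose and 1 fell in DNP vs Ctrl, 7 rose and 3 fell in PF vs DNP, and 9 rose and 3 fell in PF vs Ctrl. The small subunit gene Polr2l had log2 fold changes of 0.43, 0.33 and 0.76. Polr2c had 0.31 and Polr2i -0.68 in DNP vs Ctrl. For PF vs DNP, Polr2j had 0.31, Polr2h -0.28 and Polr2a, the largest subunit, -0.12. For PF vs Ctrl, Polr2j had 0.51, Polr2h -0.37 and Polr2i -0.57. Scaling to equal sums made the splits 5 against 3 in PF vs DNP and 6 against 4 in PF vs Ctrl, and scaling by median ratios made them 7 against 1 and 9 against 0.

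Some of these calls did not hold when a sample was left out. With each sample left out in turn, 52 of the 65 calls named from the lists, other than those of Hexim2 and Mepce, were kept and 13 were lost at least once. The calls lost in DNP vs Ctrl were, with the highest adjusted p by limma, Ell (0.0773, without DNP replicate 1), Supt4h1 (0.0559, without Ctrl replicate 2), Supt6h (0.141, without DNP replicate 2), Ccnc (0.0643, without DNP replicate 3), Bicra (0.0576, without Ctrl replicate 2), Zmynd11 (0.0688, without DNP replicate 2) and Polr2i (0.0958, without Ctrl replicate 2). Those in PF vs DNP were Paf1 (0.157, without DNP replicate 1) and Polr2a (0.0537, without DNP replicate 2). Those in PF vs Ctrl were Polr2i (0.127, without PF replicate 1), Polr2h (0.142, without Ctrl replicate 1), Ell3 (0.0962, without Ctrl replicate 3) and Leo1 (0.0564, without PF replicate 1). Several were lost under more than 1 omission, with Supt6h in DNP vs Ctrl lost under 6, and Paf1 in PF vs DNP and Polr2h in PF vs Ctrl under 5 each. The sample named is the omission with the highest adjusted p, and a loss does not tie the call to that sample. Of the 52, another 4 were lost under other settings, which left 48. In PF vs DNP, Phip was lost after scaling to equal sums (adjusted p = 0.0559 by limma), Polr2h with all 3 groups in 1 fit (0.117) and with PF replicate 1 as the sole PF sample (0.0760), and Polr2j in the latter (0.0648). Aff1 in PF vs Ctrl was lost with PF replicate 1 as the sole PF sample (0.0763).

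The genes whose log2(FPKM + 1) followed each member most closely over the 9 samples were sought among 10277 genes. The 9 samples form 3 groups and are not independent points, so the correlation is given as a description. Brd2 was followed most closely by Atp5f1e (Pearson r = 0.986) and Hgs (0.984), Brd3 by Hacd3 (0.978) and Zdhhc12 (0.965), and Hexim1 by Jtb (0.987) and Gtf2ird2 (0.986). Cdk9 was followed by Fcer1g (0.979), the gamma chain of the IgE receptor, and Anxa2 (0.968). For Ccnt1 the genes were Ids (0.975) and LOC100363171 (0.933), for Ccnt2 Irx2 (0.964) and Champ1 (0.953), and for Larp7 Psmc1 (0.940) and LOC103693430 (0.865).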

How the data were processed

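RNA of 9 RBL-2H3 samples (3 Ctrl, 3 DNP, 3 PF) was sequenced. The study's methods name BGISEQ-500 sequencing, read cleaning by SOAPnuke and DESeq2 for the authors' own tests. The labels instead describe an Illumina library protocol. The submitters' processing notes name HISAT2 2.0.4, Bowtie2 2.2.5, RSEM 1.2.12 and the rn6 build. The deposited values name no unit and were read as FPKM from their decimals and unequal sums. Each file lists 38490 genes, and 20484 of them, without values, were left out. The depth in reads is not known, counting error is therefore not estimated, and precision rests on 3 replicates.

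Each pair of groups was compared on its own 6 samples with limma 3.58.1 in R 4.3.3 (lmFit and trended eBayes) on log2(FPKM + 1). Genes needed 1 FPKM or more in 3 or more of those samples. P-values had Benjamini-Hochberg adjustment over all genes tested and a threshold of 0.05. Fold changes (x-fold) are ratios of mean FPKM. Single genes and ratios had two-sided exact permutation tests. The members and lists were chosen with earlier results of these data known. Named genes are the members, Brdt, Hexim2, Mepce, the 2 highest and 2 lowest called genes of each list, and the 2 best correlated genes per member. Ppp1r35 was added after values were seen. One related gene is not reported here.

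Alternatives were a pseudocount of 0.1, no filter, a filter in every sample, 3 scalings (median ratios, a sum of 1000000, the mean of the deposited sums), a fit over all 3 groups, a block for the replicate number, no trend, a threshold of 0.01, each sample left out, and PF replicate 1 alone. "Scaling to equal sums" in the report gives the sum of 1000000; the mean of the deposited sums made the same calls for the members.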

Additional observations from a re-analysis of the deposited data

How the results depend on the processing

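Over all genes, the counts of calls stayed within 1.5 times those reported except in DNP vs Ctrl at a threshold of 0.01, where 1469 genes were called. Leaving out 1 sample gave 2099 to 2736 calls in DNP vs Ctrl, 4138 to 4796 in PF vs DNP and 5147 to 5541 in PF vs Ctrl. Of the 7 members, 1 was called in DNP vs Ctrl after scaling to a sum of 1000000, after scaling to the mean deposited sum, without the trend and at a threshold of 0.01, and 1 to 2 with a sample left out. In PF vs DNP 3 to 5 members were called with a sample left out. In PF vs Ctrl 2 were called at a threshold of 0.01 and 3 to 5 with a sample left out. The calls of Brd2 and Mepce in PF vs DNP and PF vs Ctrl, Hexim1 in DNP vs Ctrl and PF vs Ctrl, and Cdk9 in PF vs DNP were kept in every alternative run.

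Signs turned for values that were not called. Ccnt1 in DNP vs Ctrl was 0.03 without DNP replicate 3 and ranged from -0.13 to 0.03 with a sample left out. Larp7 in PF vs DNP was -0.02 under both scalings to sums, and in PF vs Ctrl -0.05 under both and -0.01 without Ctrl replicate 1, within a range of -0.01 to 0.06 with a sample left out. Hexim2 in PF vs Ctrl was -0.04 under both, -0.04 without PF replicate 3, -0.05 without Ctrl replicate 1, a range of -0.05 to 0.10 with a sample left out, and -0.03 with PF replicate 1 as the sole PF sample, a fit in which that sample is assumed to vary like the DNP or Ctrl samples. The cause of these changes was not tested.

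With the replicate number as a block, 2697, 4675 and 6009 genes and 2, 4 and 5 members were called in DNP vs Ctrl, PF vs DNP and PF vs Ctrl. In DNP vs Ctrl the block gained Brd2 (adjusted p = 0.0324 by limma) and lost Cdk9 (0.0527), and in PF vs Ctrl it gained Ccnt1 (0.00750). Deviations of same-numbered samples correlated between -0.0739 and 0.0514, between -0.0822 and 0.00049 and between 0.083 and 0.189. Of 6 samples, 2, 0 and 6 correlated best with their own number. The main fits took the samples to share only a number. For PF vs Ctrl, where all 6 matched their own number, whether same-numbered samples shared a batch was not tested. Unknown depth limits what can be said of low values such as those of Brd3 and Hexim2.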
